A study of Mus musculus with 57 samples.

Results

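The matrix metalloproteases (MMPs), the ADAMTS enzymes, the ADAMTS-like proteins and the tissue inhibitors of metalloproteases (TIMPs) were taken by gene symbol from the 3 count tables, which gave 51 of 52853 genes: 23 MMPs, 19 ADAMTS enzymes, 5 ADAMTS-like genes and 4 TIMPs. RNA was sequenced from adipose tissue of male C57BL/6J mice that were homozygous for the p.Arg707Trp change in endogenous Mfn2 (KI) or wild-type (WT). The KI allele was made by CRISPR-Cas9, descends from a single founder and is carried by every cell of the mouse. Mice were put on diet at 5 weeks of age and studied after 6 months. Inguinal white adipose tissue (WAT) came from 7 WT and 6 KI mice on chow and from 8 WT and 8 KI mice on a high-fat diet (HFD, 45% of calories from fat). Brown adipose tissue (BAT) came from 6 WT and 6 KI mice on HFD. The change in Mfn2 is a point change, so it cannot be read from gene-level counts.

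MMPs are zinc-dependent proteases that cut collagens, laminins, elastin and many other proteins outside the cell, and most are secreted as inactive precursors. The ADAMTS enzymes are related secreted proteases that cut proteoglycans such as versican and aggrecan or trim procollagens, while the ADAMTS-like proteins share their ancillary domains, lack the protease domain and bind microfibrils. TIMPs bind the active site of MMPs and of some ADAM and ADAMTS enzymes and block it. In adipose tissue this system remodels the matrix around adipocytes as they enlarge, and stromal cells, macrophages and adipocytes all contribute to it.

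Of the 51 genes, 10 MMP genes lie side by side at chr9:7272514-7699585 (GRCm38). RefSeq promoter windows (GRCm38.p6, 250 bases before to 50 after each start) were found for 36 of the 51 genes. The letters TGACTCA on either strand, the usual AP-1 site, were in 5.20% of all 32851 windows and in 7 of these 36, and all 7 lie in the chromosome 9 cluster. TATAAA on the forward strand, a motif chosen after the windows were seen, was in 8.32% of all windows and in 11 of the 36. These 7 promoters are shown because the motif recurs in them. All 10 clustered genes have a window in the table, and those of Mmp8, Mmp20 and Mmp27 do not hold it. Each line gives the 100 bases just before the RefSeq start, 5′ to 3′ on the gene's strand, with TGACTCA (or its reverse complement TGAGTCA) and TATAAA in capitals.
Mmp13, chr9:7272414-7272513, plus strand: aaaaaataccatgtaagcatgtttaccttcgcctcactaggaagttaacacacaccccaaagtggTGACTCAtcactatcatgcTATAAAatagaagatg
Mmp12, chr9:7347274-7347373, plus strand: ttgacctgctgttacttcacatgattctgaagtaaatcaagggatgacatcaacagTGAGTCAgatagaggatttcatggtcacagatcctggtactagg
Mmp1b, chr9:7388027-7388126, minus strand: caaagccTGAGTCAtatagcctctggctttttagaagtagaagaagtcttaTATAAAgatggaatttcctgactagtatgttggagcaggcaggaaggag
Mmp3, chr9:7445722-7445821, plus strand: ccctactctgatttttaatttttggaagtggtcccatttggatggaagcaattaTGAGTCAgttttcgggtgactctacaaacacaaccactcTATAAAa
Mmp1a, chr9:7464041-7464140, plus strand: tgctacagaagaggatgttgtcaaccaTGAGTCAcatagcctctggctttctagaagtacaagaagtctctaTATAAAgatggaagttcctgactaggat
Mmp10, chr9:7502242-7502341, plus strand: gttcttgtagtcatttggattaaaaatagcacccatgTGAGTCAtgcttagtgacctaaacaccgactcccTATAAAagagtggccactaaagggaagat
Mmp7, chr9:7691990-7692089, plus strand: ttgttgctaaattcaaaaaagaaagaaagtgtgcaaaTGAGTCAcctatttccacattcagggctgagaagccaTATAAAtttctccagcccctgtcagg
In these stretches the AP-1 letters stood at −35 in Mmp13, −44 in Mmp12, −46 in Mmp3, −63 in Mmp10 and Mmp7, −73 in Mmp1a and −93 in Mmp1b, counted from the start to the first base of the site. For Mmp12 the RefSeq start lies inside the gene as the count annotation draws it. The ATF4-C/EBP letters TGATGCAAT and TGATGAAAC, present in 0.192% and 0.247% of all windows, were in none of the 36, which says only that these letters are not in these windows. Of the 10 clustered genes, 4 had enough counts to be tested on HFD (Mmp3, Mmp12, Mmp13 and Mmp27), and edgeR's test called none of the 4 by genotype there. Mmp3 and Mmp12 had an unadjusted p below 0.05, and DESeq2 called Mmp12 (adjusted p = 0.002). The same stretch is also shown for Adamtsl4, Adamtsl5, Adamts12 and Timp4, 4 genes outside the cluster picked because their counts moved with genotype or diet. They held neither motif, like most of the 36 genes, and the windows of Mmp11, Mmp28 and Timp3 held neither. Whether the motifs bear on the response of a gene was not tested.
Adamts12, chr15:11064673-11064772, plus strand: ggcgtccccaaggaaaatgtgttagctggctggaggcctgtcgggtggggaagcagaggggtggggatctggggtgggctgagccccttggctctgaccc
Adamtsl4, chr3:95687918-95688017, minus strand: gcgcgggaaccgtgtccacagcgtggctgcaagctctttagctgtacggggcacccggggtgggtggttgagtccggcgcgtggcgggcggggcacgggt
Adamtsl5, chr10:80348449-80348548, minus strand: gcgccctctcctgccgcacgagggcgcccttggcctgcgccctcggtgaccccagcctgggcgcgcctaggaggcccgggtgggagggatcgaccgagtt
Timp4, chr6:115252206-115252305, minus strand: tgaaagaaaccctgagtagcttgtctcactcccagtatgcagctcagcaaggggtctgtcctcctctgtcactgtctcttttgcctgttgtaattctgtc

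Total counts per mouse were 8668279 to 11720458 in inguinal WAT on chow, 17572752 to 25680411 in inguinal WAT on HFD and 8042591 to 10522554 in BAT. Ucp1, the thermogenic protein of brown adipocytes, was at 4164 to 8515 CPM in BAT and at most 1.77 CPM in inguinal WAT, and the adipocyte gene Adipoq was at 574 CPM or more in every mouse. In 13 libraries the summed markers of another tissue were more than 10 times the median of their table (and above 50 CPM): skeletal muscle in 7, lymphocytes in 6, and epithelium and mesothelium in 1 of those 6, chow WT mouse 4. That mouse also held the highest Mmp12 level of any mouse and 504 counts of Mmp7 (matrilysin, an epithelial protease). Results below were recomputed without these 13 libraries. Because a whole tissue was sequenced, fewer cells of a type and less RNA per cell cannot be told apart. Exons of 13 of the 51 genes overlap exons of another gene, and counts of the pair cannot be told apart where reads fall in the shared stretch. This touched Mmp11 (with Chchd10), Timp3 (with Syn3), Mmp28 (with 1700020L24Rik), Mmp19 (with Tmem198b and the antisense Gm47093), Mmp24 (with BC029722), Timp4 (with Syn2) and Adamts7 (with Tbc1d2b).

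Per kilobase of exon, Timp3 and Timp2 were the most abundant of the 51 genes in inguinal WAT of WT mice on HFD, with Timp4 behind Mmp2 and Adamts5 and Timp1 in place 23. Mmp11 came first in KI mice on chow and in both BAT groups, and Timp4 in WT mice on chow. In inguinal WAT of WT mice on HFD, the mean was 93.2 reads per kilobase and per 1000000 reads (RPKM) for Timp3, 63.9 for Timp2 and 34.8 for Timp4. Timp3 binds the matrix and also inhibits ADAM17 and aggrecanases, and Timp2 both inhibits MMPs and helps activate Mmp2. Among the proteases, Mmp2 (gelatinase A, 40.8) and Adamts5 (a versican- and aggrecan-cleaving enzyme, 35.6) led, followed by Mmp11 (25.0, shared with Chchd10), Mmp3 (stromelysin-1, 19.8), Mmp19 (13.4), Mmp12 (13.2), Adamts10 (12.1) and Adamts2 (11.8). At the other end, 12 of the 51 genes had 3 counts or fewer in most mice: Mmp1a, Mmp1b, Mmp7, Mmp8, Mmp10, Mmp16, Mmp20, Mmp21, Adamts3, Adamts13, Adamts16 and Adamts19. These include 3 of the 4 collagenases, and the fourth, Mmp13, had a median of 0.86 CPM (counts per 1000000 reads) in the same mice. The number of genes above a mean of 1 RPKM was 26 to 28 in the inguinal groups and 21 or 22 in BAT.

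**Figure D1:**
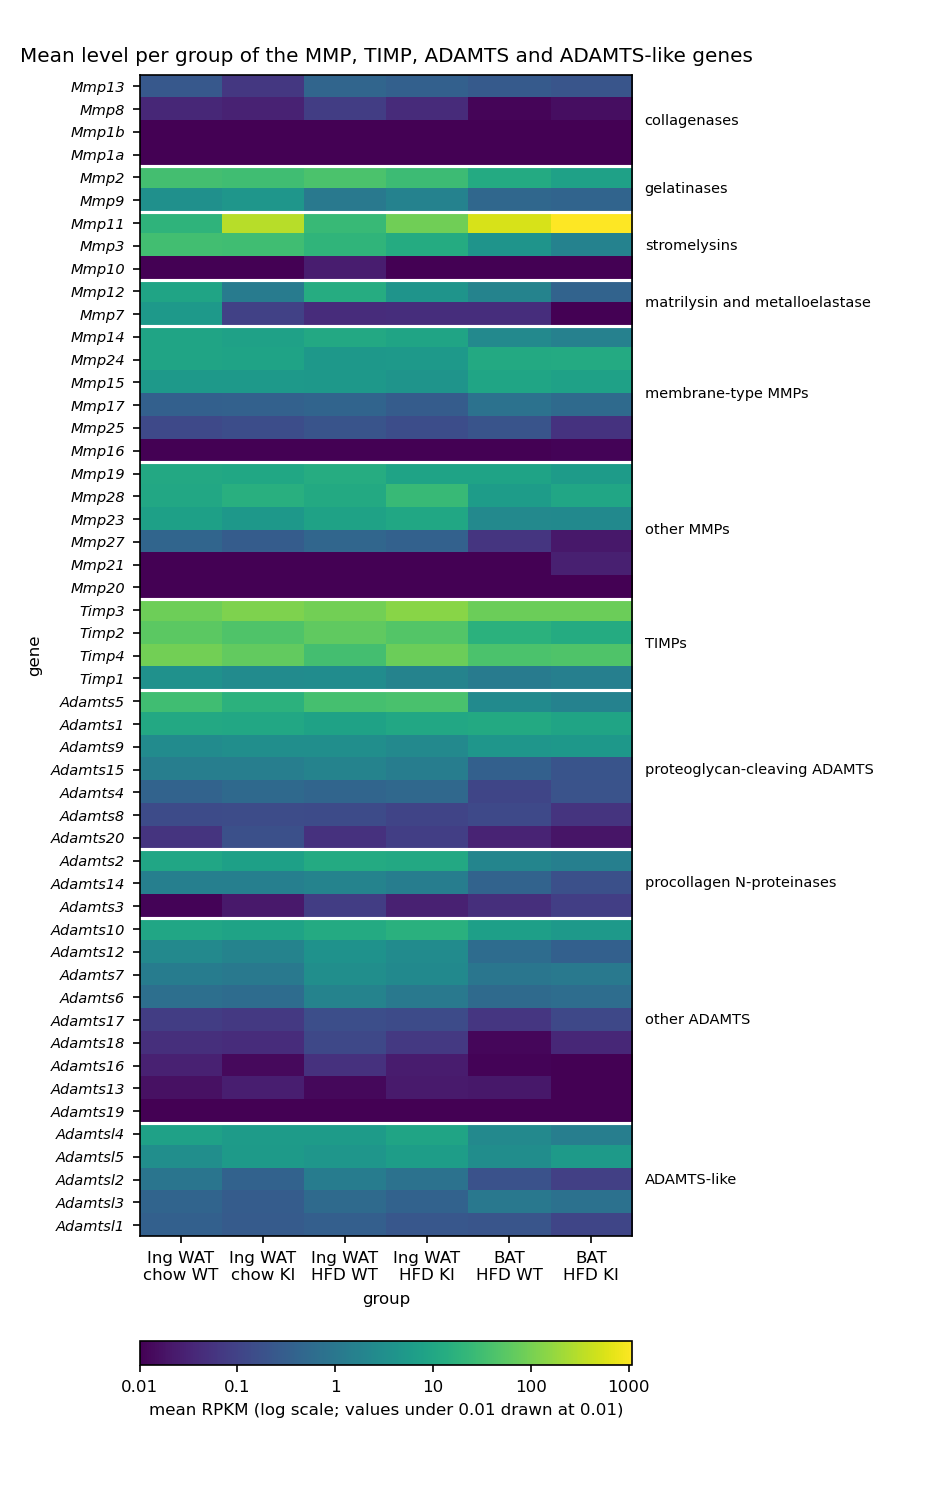
Mean RPKM of each of the 51 genes (rows, grouped by role) in the 6 groups (columns), coloured on a log scale, with values under 0.01 drawn at 0.01. Timp3, Timp2 and Timp4 are bright in every inguinal group, Adamts5 and Mmp2 are darker in BAT, Mmp11 is brightest in BAT, and 12 genes are near the bottom of the scale in most mice.

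The first comparison asked which of these genes differed with the Mfn2 genotype in inguinal WAT on HFD. A gene was called changed at a Benjamini-Hochberg adjusted p below 0.01 in edgeR's quasi-likelihood test over all genes of that tissue. Timp4, Timp3, Mmp28, Mmp11 and Adamtsl4 rose in KI mice, and Mmp19 and Adamts12 fell. Of the 51 genes, 39 passed the filter on low counts, and 7 of those were called, 5 higher and 2 lower. Over all 16471 genes tested, 11.5% were called, 6.21% higher and 5.24% lower. The 39 tested genes had a median log2 fold change of −0.33, against 0.01 over all genes tested, and 25 of the 39 values were negative. Without the libraries with high markers of another tissue, 6 were called, all among the 7, and 1313 of all genes were.

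**Figure D2:**
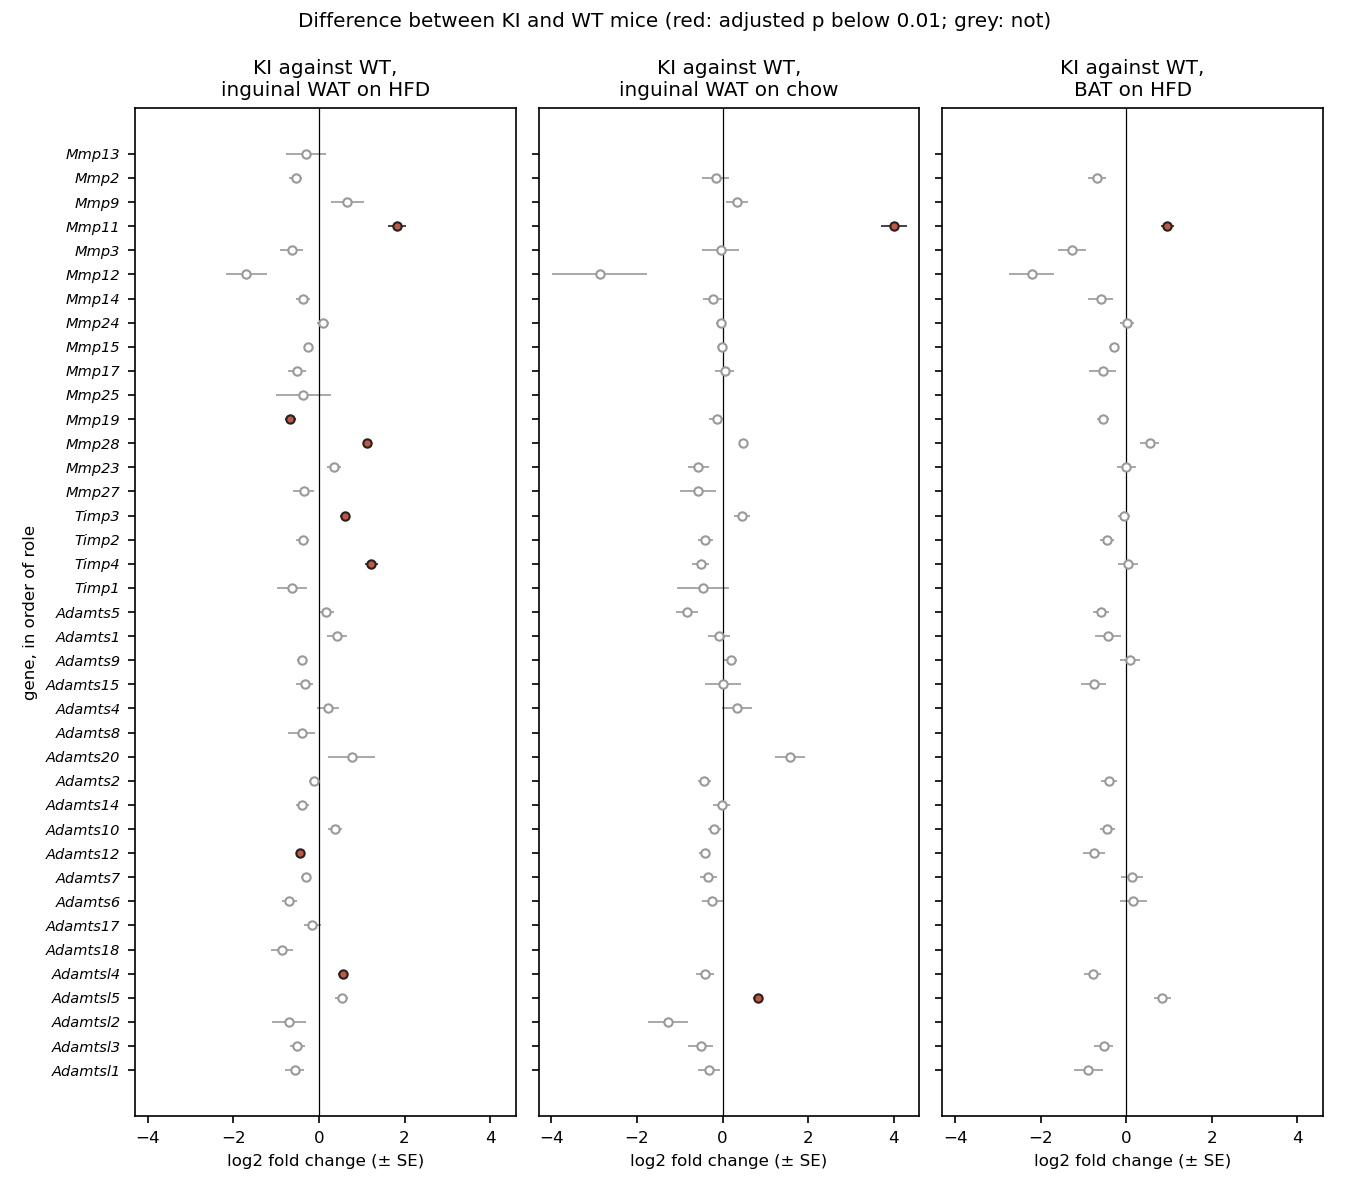
KI against WT log2 fold change (x axis, bars ± SE) of each tested gene (y axis, in order of role) in inguinal WAT on HFD, inguinal WAT on chow and BAT on HFD, with red points at an adjusted p below 0.01 and grey points otherwise; a gene without a point was not tested there. The 7, 2 and 1 red points of the panels include Mmp11 to the right of 0 in each, and Timp4 in the HFD panel of inguinal WAT.

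Among the inhibitors, Timp4 (chr6:115241892-115252205), a TIMP abundant in adipocytes, heart and brain, had 147 to 316 CPM in WT mice (median 189) and 335 to 541 CPM in KI mice (median 502). Every KI mouse was above every WT mouse. The difference was 1.23 ± 0.15 (log2, SE), or 2.34-fold, with an adjusted p of 1.28e-05. Timp3 (chr10:86300372-86349506) had 601 to 938 CPM in WT mice (median 775) and 932 to 1374 CPM in KI mice (median 1159), so the groups met at a single pair of mice. It rose by 1.51-fold (log2 0.60 ± 0.11, adjusted p = 0.00081). Timp2 had 180 to 369 CPM in WT (median 226) and 140 to 260 CPM in KI mice (median 189). Its log2 difference of −0.38 ± 0.14 did not pass the test (adjusted p = 0.0667). Timp1, an inducible and secreted inhibitor, was low, with a median of 1.99 CPM in the WT group, 1.51 CPM in the KI group and a log2 difference of −0.63 ± 0.35 (adjusted p = 0.222). Of the 4 inhibitors, Timp4 and Timp3 were called higher, and the negative values of Timp2 and Timp1 were not called.

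**Figure D3:**
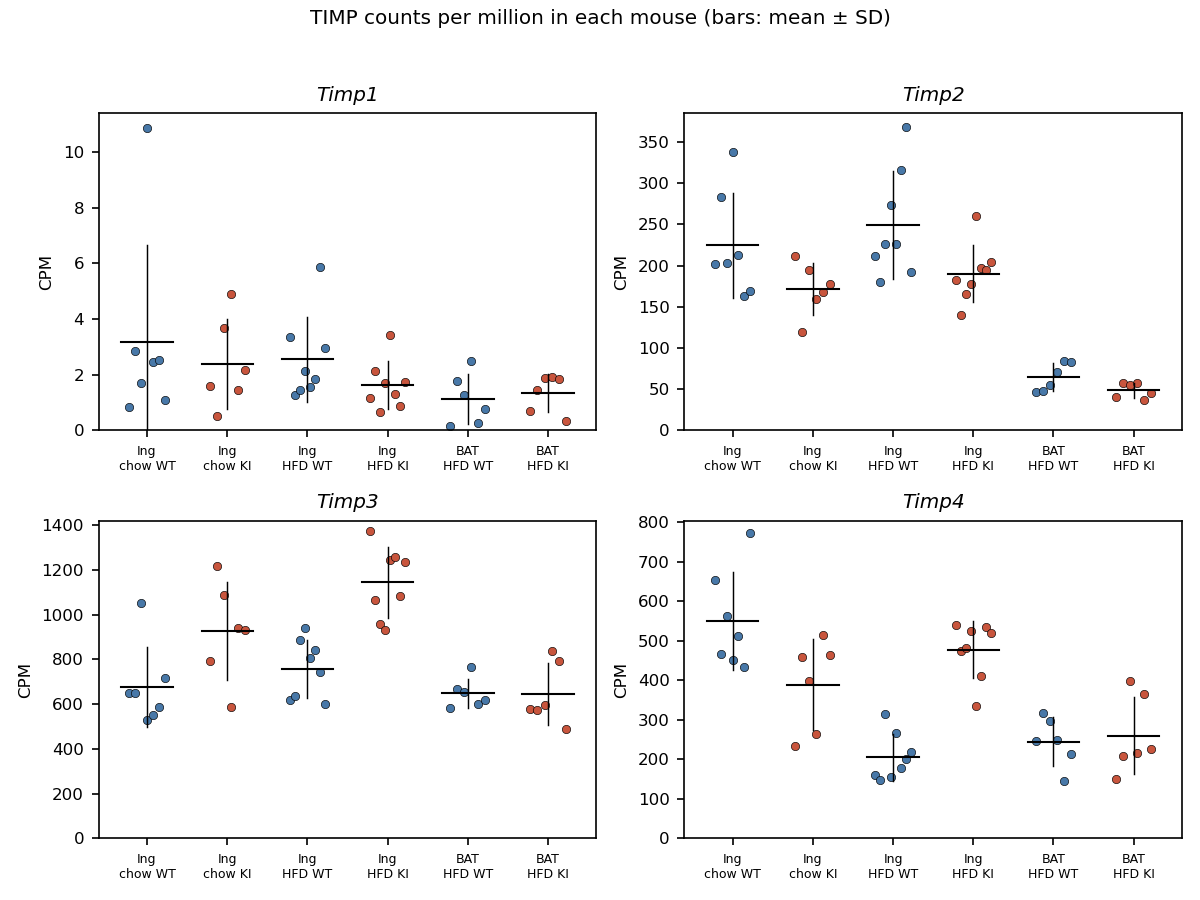
CPM (y axis, from 0) of Timp1, Timp2, Timp3 and Timp4 in each mouse of the 6 groups (x axis), with WT mice in blue, KI mice in red and the mean ± SD as bars. For Timp4 in inguinal WAT on HFD, the 8 KI mice (335 to 541 CPM) lie above the 8 WT mice (147 to 316 CPM), while on chow and in BAT the genotypes overlap.

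The proteases that rose were both outside the main collagenase and gelatinase classes. Mmp28 (epilysin, chr11:83440768-83463071), a secreted MMP found in epithelia and macrophages, had 36.3 to 51.5 CPM in WT mice (median 43.9) and 69.1 to 115 CPM in KI mice (median 96.3), with no overlap. It was 2.16-fold higher (log2 1.11 ± 0.089, adjusted p = 8.05e-08). Mmp11 (stromelysin-3, chr10:75923222-75936496), which is activated inside the cell by furin, had 37.5 to 99.3 CPM in WT mice (median 71.6) and 132 to 364 CPM in KI mice (median 244), again with no overlap. It was 3.53-fold higher (log2 1.82 ± 0.21, adjusted p = 8.33e-06).

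Both carry the reservation on shared exons. Mmp11 shares 155 exon bases with Chchd10, a mitochondrial protein gene on the opposite strand, which rose by 2.61 ± 0.21 on the log2 scale in the same mice. Mmp28 shares 466 bases with 1700020L24Rik, which rose by 1.09 ± 0.13. Timp3 shares 1733 bases with Syn3, which had a log2 difference of 0.59, and the ratio of Timp3 to Syn3 counts stayed between 1.03 and 1.40 in all mice. The strand setting of the counting is not given in the sources used here. For Timp4 the shared stretch is 90 bases and Syn2 had few counts, since Timp4 exceeded it by 10.6 to 58.4 times. Of the 7 called genes, the 2 whose exons touch no other gene are Adamtsl4 and Adamts12.

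**Figure D4:**
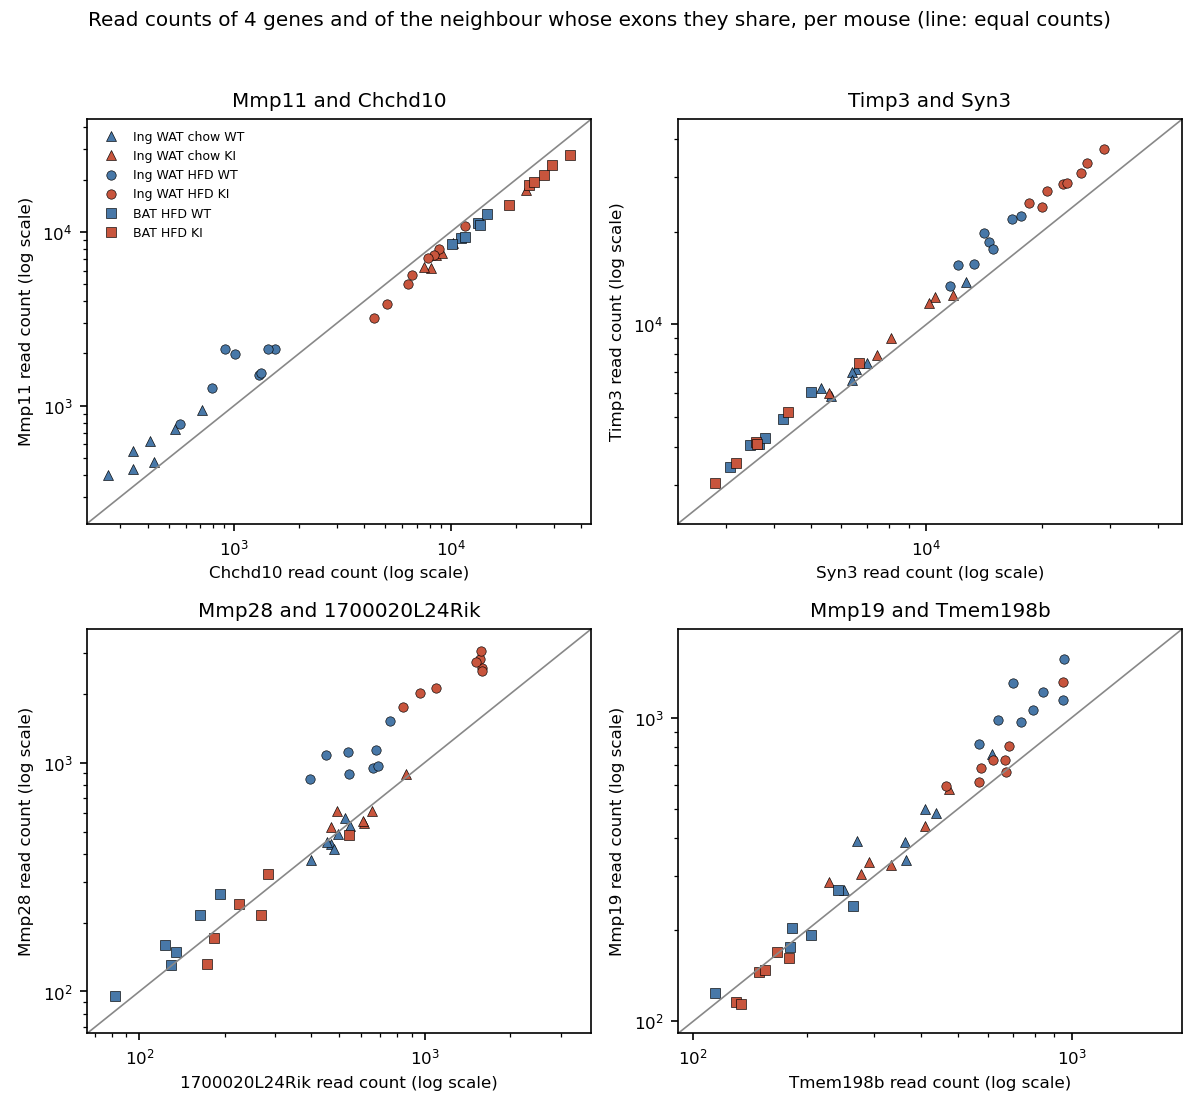
Read count per mouse of Mmp11, Timp3, Mmp28 and Mmp19 (y axes) against the neighbouring gene whose exons each shares (x axes), on log axes, with WT mice in blue, KI mice in red, a symbol for each tissue and diet, and a line of equal counts. Timp3 stays 1.03 to 1.40 times Syn3 in every mouse. Mmp11 runs along the line with Chchd10, above it in WT inguinal WAT and below it in KI inguinal WAT and in BAT of both genotypes.

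Adamtsl4 (chr3:95676201-95687917), which binds fibrillin-1 microfibrils, had 18.4 to 33.9 CPM in WT mice (median 24.6) and 30.3 to 41.7 CPM in KI mice (median 36.3). It rose by 1.46-fold (log2 0.55 ± 0.11, adjusted p = 0.00102), with overlapping groups. Adamtsl5, another fibrillin-binding relative, differed by 0.53 ± 0.15 (adjusted p = 0.0173) and was not called. It passed without KI mouse 2 (adjusted p = 0.00251) and did not pass without the high-marker libraries (0.46, adjusted p = 0.0284). Adamts10, which also binds fibrillin, differed by 0.37 ± 0.16 (adjusted p = 0.12).

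Mmp19 (chr10:128790910-128800824), a stromal and macrophage protease that cuts basement membrane proteins, had 39.3 to 61.7 CPM in WT mice (median 46.0) and 23.7 to 44.2 CPM in KI mice (median 28.1). A single KI mouse, number 5, at 44.2 CPM, reached into the WT range. It fell by 0.67 ± 0.12 on the log2 scale, 1.59-fold (adjusted p = 0.00061), while Tmem198b, with which it shares 789 bases, had −0.35. Adamts12 (chr15:11064790-11349231), which cuts cartilage oligomeric matrix protein (Comp), had 34.0 to 48.0 CPM in WT mice (median 39.4) and 22.3 to 37.7 CPM in KI mice (median 28.2). It was 1.36-fold lower (log2 −0.44 ± 0.11, adjusted p = 0.00706). The call on Adamts12 was lost in 9 of 16 fits that left out 1 mouse (WT mouse 3, 4, 6 or 7, or KI mouse 2, 3, 4, 6 or 7, adjusted p 0.0101 to 0.0158) without the high-marker libraries (adjusted p = 0.0495) and in a single fit of all 6 groups (adjusted p = 0.0275).

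Several abundant proteases had values below 0 that missed the threshold in edgeR. DESeq2 called Mmp2, Mmp12, Adamts6 and Mmp15 among them, and Adamtsl5 among the positive values. Over all genes, DESeq2 called 2754 here, where edgeR called 1886. Mmp2 had 103 to 181 CPM in WT mice (median 128) and 53.6 to 113 CPM in KI mice (median 98.6), a log2 difference of −0.55 ± 0.15 (adjusted p = 0.0125). Mmp12, which macrophages secrete to cut elastin, had 29.0 to 153 CPM in WT mice (median 98.9) and 10.2 to 81.9 CPM in KI mice (median 19.9), a difference of −1.70 ± 0.48 (adjusted p = 0.0199). Mmp14, the membrane-type protease that activates Mmp2, differed by −0.37 ± 0.16 (adjusted p = 0.129). Adamts6 had −0.69 ± 0.18 (adjusted p = 0.0109) and Mmp15 had −0.25 ± 0.072 (adjusted p = 0.0179). The differences were small beside their errors for Mmp13 (−0.30 ± 0.46), Adamts5 (0.17 ± 0.18) and the procollagen N-proteinase Adamts2 (−0.10 ± 0.13). The membrane-type MMPs gave 0 calls of 5 tested, the proteoglycan-cleaving ADAMTS enzymes 0 of 7 and the gelatinases 0 of 2 with edgeR. Unadjusted p-values below 0.05 were found for 3, 1 and 1 of them, and DESeq2 called 1, 0 and 1. Within these classes the aggrecanases Adamts4 (0.21 ± 0.26) and Adamts1 (0.42 ± 0.23) and the endothelial enzyme Adamts9 (−0.39 ± 0.12, adjusted p = 0.0224) did not pass.

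Markers of some cell types differed in the same mice, beside 6.21% of all genes called higher and 5.24% called lower. The summed level of 7 brown adipocyte markers was 15.0 to 33.4 CPM in WT mice (median 21.5) and 28.5 to 62.8 CPM in KI mice (median 45.2). Of the 4 of them tested, Cidea (1.55 ± 0.27) and Cox8b (1.04 ± 0.25) were called higher, alongside Mmp11. The summed level of 10 fibroblast and preadipocyte markers was 1340 to 2172 CPM in WT mice (median 1841) and 1080 to 1636 CPM in KI mice (median 1303), and 2 of the 10, Cd55 and Dpt, were called lower. The summed level of 12 macrophage markers was 798 to 1404 CPM in WT mice (median 1104) and 606 to 1771 CPM in KI mice (median 831), and 1 of 12, Itgax, was called lower. Of 5 mast cell markers, 4 were called lower. No defining marker of these lists was at 0. Of 7 adipocyte markers, Lipe and Pnpla2 were called higher and Adipoq lower, and of 4 tested neutrophil markers S100a8 was called lower. EdgeR called no marker of endothelium (7 tested), smooth muscle and pericytes (7), skeletal muscle (8), lymphocytes (7) or Schwann cells (5). The part of these cell types in the differences in Mmp11, Mmp19, Adamts12, Mmp2 and Mmp12 was not tested.

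**Figure D5:**
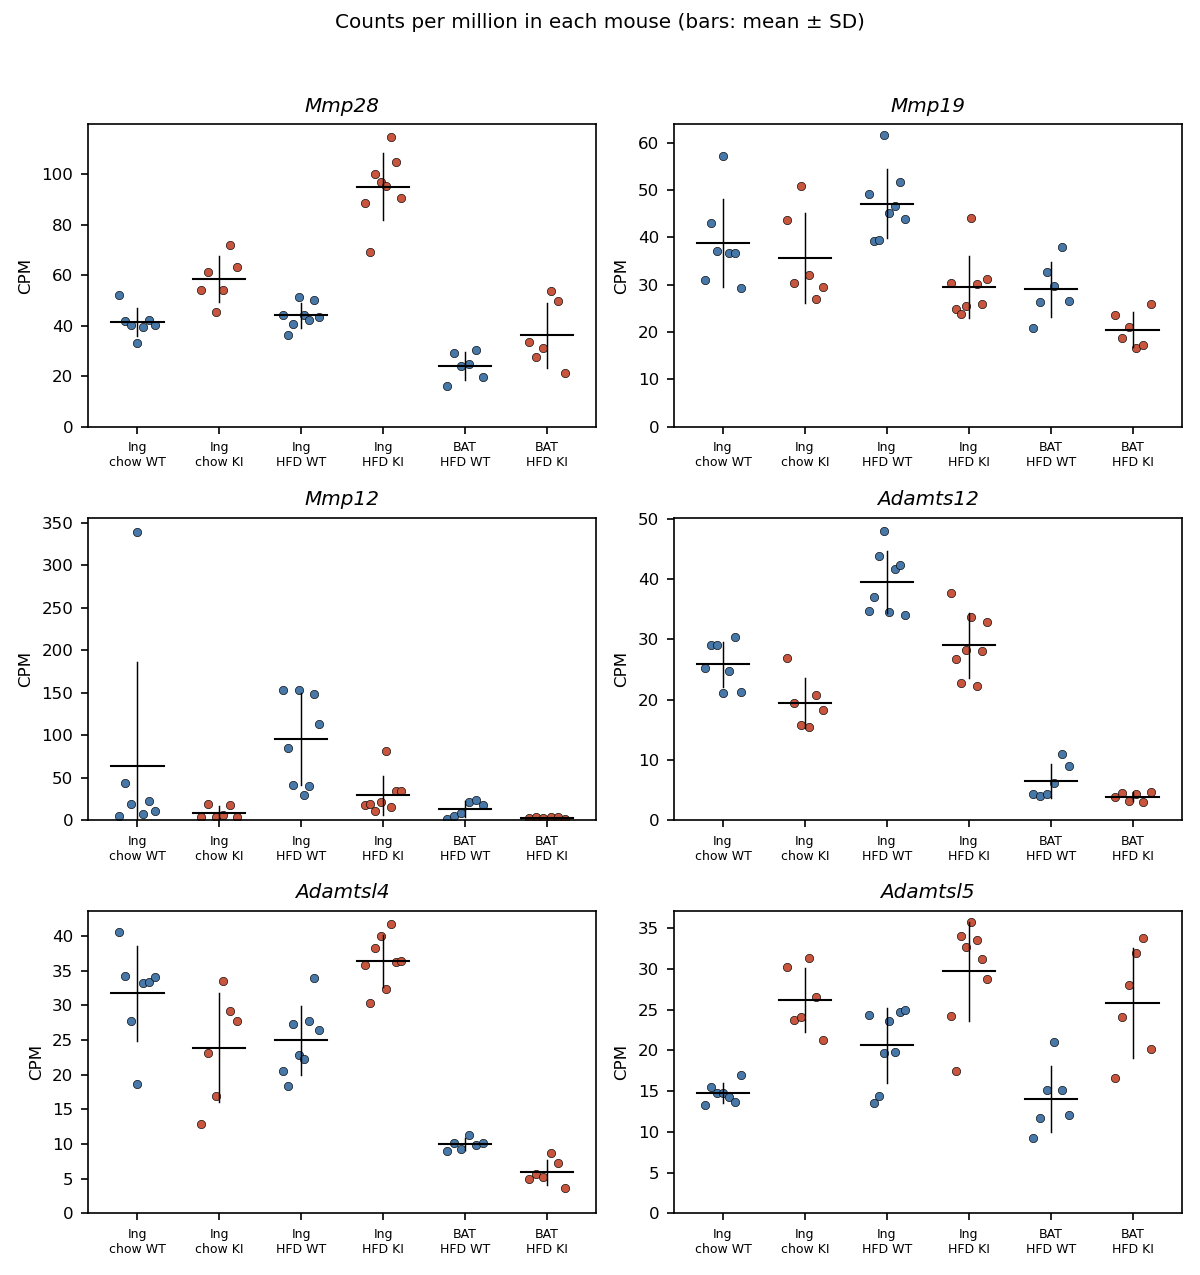
CPM (y axis, from 0) of Mmp28, Mmp19, Mmp12, Adamts12, Adamtsl4 and Adamtsl5 in each mouse of the 6 groups (x axis), with WT mice in blue, KI mice in red and the mean ± SD as bars. Mmp28 separates the 8 KI from the 8 WT mice in inguinal WAT on HFD, and a single chow WT mouse stands at 339 CPM of Mmp12.

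In inguinal WAT on chow, Mmp11 and Adamtsl5 rose in KI mice and no gene was called lower by edgeR. That is 2 of 34 tested genes (13 with an unadjusted p below 0.05, and 4 called by DESeq2), with 3.23% called over all 14629 genes, 1.96% higher and 1.27% lower. DESeq2 called 1116 of all genes there, where edgeR called 472. The 34 genes had a median log2 difference of −0.18, against −0.01 over all genes, and 24 of them were negative. Mmp11 had 30.8 to 71.7 CPM in WT mice (median 47.5) and 507 to 1742 CPM in KI mice (median 754), a 16.2-fold difference (log2 4.01 ± 0.30, adjusted p = 5.56e-06). Chchd10 rose by 4.77 ± 0.33 in the same mice. Adamtsl5 (chr10:80339110-80348412), whose exons touch no other gene, had 13.3 to 17.0 CPM in WT mice (median 14.8) and 21.3 to 31.3 CPM in KI mice (median 25.3). It was 1.76-fold higher with no overlap (log2 0.82 ± 0.10, adjusted p = 0.000227).

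The inhibitors and Mmp28 gave no call on chow in edgeR. DESeq2 called Mmp28 (adjusted p = 0.00107) and Adamts20 (adjusted p = 0.00251) there and none of the 4 inhibitors, 3 of which had an unadjusted p below 0.05 in edgeR. Timp4 had 433 to 772 CPM in WT mice (median 512) and 233 to 514 CPM in KI mice (median 429), a log2 difference of −0.51 ± 0.20 (adjusted p = 0.127). Timp3 differed by 0.45 ± 0.19 (adjusted p = 0.152), Timp2 by −0.40 ± 0.18 (adjusted p = 0.183) and Timp1 by −0.45 ± 0.60 (adjusted p = 0.695). Mmp28 differed by 0.49 ± 0.11 (adjusted p = 0.0124), and it passed without the high-marker libraries (0.61, adjusted p = 0.00251), without WT mouse 1 (adjusted p = 0.00546) or without KI mouse 3 (adjusted p = 0.00599). Adamts20, a versican-cleaving enzyme at 0.26 to 0.83 CPM in WT and 0.99 to 2.45 CPM in KI mice, did not overlap between the groups. It had 1.58 ± 0.35 (adjusted p = 0.0116), and these values rest on few counts. Mmp12 differed by −2.87 ± 1.11 (adjusted p = 0.131), with a single WT mouse at 339 CPM against a WT median of 18.4. The summed fibroblast markers were 1381 to 2830 CPM in WT mice (median 2449) and 1209 to 1643 CPM in KI mice (median 1382), and the summed brown adipocyte markers had medians of 76.6 and 410.3 CPM. Their part in these values was not tested.

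In BAT on HFD, Mmp11 was the gene called. It was 1 of 27 tested, with 1.83% called over all 13267 genes, 1.36% higher and 0.475% lower. Mmp11 had 1242 to 1769 CPM in WT mice (median 1511) and 2306 to 4044 CPM in KI mice (median 2864), with no overlap. The difference was 1.94-fold (log2 0.96 ± 0.15, adjusted p = 0.00173), and Chchd10 rose by 1.01 ± 0.16. The 27 genes had a median log2 difference of −0.44, against −0.01 over all genes, and 18 were negative.

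Adamtsl4 had the opposite sign in BAT, with 8.94 to 11.3 CPM in WT mice and 3.69 to 8.64 CPM in KI mice. These groups did not overlap, and the difference of −0.78 ± 0.19 was not called (adjusted p = 0.0234, and an exact permutation p of 0.00216, the smallest that 6 against 6 mice can give). It passed without KI mouse 4 (adjusted p = 0.0066). Adamtsl5 differed by 0.84 ± 0.20 (adjusted p = 0.0184) and passed without WT mouse 4 (adjusted p = 0.00841) or KI mouse 1 (adjusted p = 0.00936). Without the high-marker libraries its difference was 0.66 (adjusted p = 0.0959). DESeq2 called Adamtsl4 and Adamtsl5 (adjusted p = 0.00431 and 0.00209). EdgeR made no call for Mmp12 (−2.20 ± 0.53, adjusted p = 0.0256), Mmp3 (−1.27 ± 0.32, adjusted p = 0.0273) or Mmp19 (−0.54 ± 0.15, adjusted p = 0.034). Of these, DESeq2 called Mmp12 (adjusted p = 0.00296) and Mmp3 (adjusted p = 0.00451). Timp4 (0.04 ± 0.23), Timp3 (−0.05 ± 0.14) and Timp2 (−0.44 ± 0.17) were not called by either tool. The fibroblast marker sum was 448 to 759 CPM in WT mice (median 619) and 442 to 550 CPM in KI mice (median 509). Of its 10 markers, Pi16, Dpt and Clec3b were called lower, beside 0.475% of all genes, and the log2 differences ran from −1.62 to 0.54. The brown adipocyte marker sum was 12181 to 17817 CPM in WT mice (median 15215) and 14178 to 22320 CPM in KI mice (median 19231). EdgeR called none of these 7 markers, and DESeq2 called 1. Their part in these values was not tested.

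The genotype effect itself was then compared between diets and between depots, by an interaction term. Across diets in inguinal WAT, 2 of 39 genes were called, 1 higher and 1 lower, where 0.632% of all genes were (0.207% higher, 0.425% lower). The KI effect on Timp4 was larger on HFD by 1.75 ± 0.26 (log2, adjusted p = 0.00043), having been 1.23 on HFD and −0.51 on chow. The KI effect on Mmp11 was smaller on HFD by 2.18 on the log2 scale (interaction −2.18 ± 0.35, adjusted p = 0.000945). Chchd10, whose exons Mmp11 shares, had a KI effect of 4.77 on chow and 2.61 on HFD. Among genes without exon overlap, edgeR called none for this interaction, and 4 had an unadjusted p below 0.05. Mmp28 (0.64 ± 0.15, adjusted p = 0.0158) and Adamtsl4 (0.98 ± 0.24, adjusted p = 0.0199) missed the threshold. Between BAT and inguinal WAT on HFD, 1 of 39 genes was called where 2.82% of all genes were (1.58% higher, 1.24% lower). It was Adamtsl4, whose KI effect was lower in BAT by 1.30 on the log2 scale (−1.30 ± 0.20, adjusted p = 9.95e-05). Timp4 had −1.14 ± 0.29 (adjusted p = 0.0126) and Timp3 had −0.61 ± 0.18 (adjusted p = 0.0304).

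HFD was set against chow within inguinal WAT, a comparison in which diet coincides with the count table, so that diet and any difference between the runs cannot be told apart. In WT mice 8 of 39 genes were called, 5 higher and 3 lower, against 28.2% of all genes (13.1% higher, 15.2% lower). The rises lay among the ADAMTS enzymes outside the proteoglycan- and procollagen-cleaving classes: Adamts18 by 2.57-fold, Adamts6 by 2.52-fold, Adamts7 by 2.31-fold and Adamts12 by 1.53-fold, 4 of the 6 tested in that class. Adamts6, for instance, had 4.23 to 6.60 CPM on chow and 7.60 to 19.3 CPM on HFD, with no overlap. Adamts18 rested on few counts, at 0.108 to 0.754 CPM on chow and 0.397 to 1.65 CPM on HFD. Adamtsl5 also rose, by 1.40-fold (adjusted p = 0.00764), a call lost in 13 of 29 fits that left out 1 mouse (WT chow mouse 1, 2, 3, 5 or 6, WT HFD mouse 1, 4, 5, 7 or 8, or KI HFD mouse 3, 6 or 7, adjusted p 0.01 to 0.0213). Mmp9 (gelatinase B), known from neutrophils and macrophages, had 8.84 to 16.1 CPM on chow and 2.06 to 6.93 CPM on HFD. It fell 3.21-fold (log2 −1.68 ± 0.35, adjusted p = 0.00038). Timp4 fell 2.67-fold in WT mice (log2 −1.42 ± 0.18, adjusted p = 3.5e-07), and the brain-enriched membrane-type protease Mmp24 fell by 1.73-fold.

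In KI mice 14 of 39 genes were called across diets, 10 higher and 4 lower, against 30.6% of all genes (15.2% higher, 15.4% lower). Timp4 differed by 0.33 on the log2 scale and was not called. Adamts7 (2.38-fold), Adamts6 (1.86-fold) and Adamts12 (1.53-fold) rose, and Mmp9 (2.56-fold) and Mmp24 (1.56-fold) fell. Adamts5 (2.38-fold), Adamts10 (1.94-fold), Adamts2 (1.53-fold), Mmp28 (1.67-fold), Adamtsl4 (1.56-fold), Mmp13 (5.43-fold) and Mmp23 (2.09-fold) also rose. Mmp13 was close to the detection limit, at 0 to 0.412 CPM on chow and 0.269 to 2.05 CPM on HFD in KI mice. Mmp11 (3.42-fold, shared with Chchd10) and Mmp3 (2.43-fold) fell. The call on Mmp9 was lost without KI chow mouse 1 (adjusted p = 0.0123). Beside these changes, the endothelial marker sum had a median of 1297 CPM on chow and 1825 CPM on HFD in WT mice, and of 1115 and 1707 CPM in KI mice, with 4 and 5 of 7 markers called higher. The fibroblast sum had medians of 2449 and 1841 CPM in WT and 1382 and 1303 CPM in KI mice, with 3 and 2 of 10 called lower and Cd34 called higher in both. The brown adipocyte sum had medians of 76.6 and 21.5 CPM in WT and 410.3 and 45.2 CPM in KI mice, with 2 and 4 of 7 called lower, and Elovl3 called higher in WT mice. The part of these markers in the diet results was not tested. Of the 9 genes called in KI and not in WT mice, the interaction with genotype was called for Mmp11 alone. Without the high-marker libraries 9 genes were called, 7 of them among the 14, and 2977 of all genes were. Adamts6 (adjusted p = 0.0239) and Mmp24 (adjusted p = 0.0189) no longer passed.

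BAT was set against inguinal WAT on HFD, where depot again coincides with the count table and whether the same mice gave both depots is not stated. In WT mice 27 of 39 genes were called, 5 higher and 22 lower, against 55.9% of all genes (26.9% higher, 29% lower). In KI mice 30 of 39 were called, 6 higher and 24 lower, against 59.1% (28.4% higher, 30.6% lower). The median log2 difference of the 39 genes was −1.19 in WT and −1.38 in KI mice, against −0.09 and −0.12 over all genes. The 22 genes lower in WT mice included proteases of several classes, the inhibitor Timp2 and ADAMTS-like genes. Adamts5 had 211 to 513 CPM in inguinal WAT and 19.9 to 40.6 CPM in BAT of WT mice, a 14.1-fold difference (log2 −3.82 ± 0.22, adjusted p = 4.16e-15), and was 23.3-fold lower in KI mice. Its neighbour on chromosome 16, Adamts1, differed by 0.56 and was not called.

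Also lower in BAT of WT mice were Mmp2 (3.37-fold), Mmp14 (4.72-fold), Mmp12 (7.31-fold), Adamts2 (6.15-fold), Adamts12 (6.12-fold), Adamtsl2 (6.84-fold) and Timp2 (3.86-fold). The aggrecanase Adamts15 (5.09-fold), the procollagen N-proteinase Adamts14 (4.42-fold), Adamts4 (3.78-fold), Mmp3 (4.93-fold) and Mmp23 (3.41-fold) were lower too. Timp2 had 46.2 to 84.4 CPM in BAT and 180 to 369 CPM in inguinal WAT, with no overlap. Mmp27 and Adamts18 were close to the detection limit in BAT. Adamts18 had 5 counts over the 6 WT mice in BAT and 242 over the 8 in inguinal WAT, a ratio of 10.4 in CPM (95% counting interval 4.40 to 32.4), and Mmp27 had 5 and 200 counts, a ratio of 8.61 (3.63 to 26.8). These intervals cover counting error only. Timp3 and Timp4 were lower in BAT of KI mice, by 1.79-fold and 1.85-fold, and were not called in WT mice.

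Higher in BAT of WT mice were Mmp11 (21.7-fold, shared with Chchd10), Mmp24 (2.35-fold), Adamtsl3 (1.89-fold), Mmp17 (1.87-fold) and Mmp15 (1.87-fold), and the same 5 genes were called higher in KI mice, with Adamts9 (2.01-fold) besides. Mmp15, a membrane-type MMP, had 22.2 to 29.7 CPM in inguinal WAT and 42.0 to 59.2 CPM in BAT. Mmp17 had 1.63 to 3.87 CPM in inguinal WAT and 3.22 to 6.37 CPM in BAT of WT mice, and its call was lost without BAT WT mouse 4 (adjusted p = 0.0108), and in KI mice without inguinal KI mouse 3 or 8 or BAT KI mouse 1, 4 or 6 (adjusted p 0.0102 to 0.0394). Mmp17 and Adamtsl3 were not called in either genotype without the libraries with high markers of another tissue. The fibroblast marker sum was 448 to 759 CPM in BAT of WT mice and 1340 to 2172 CPM in inguinal WAT, and the macrophage sum was 238 to 714 and 798 to 1404 CPM. All 7 brown adipocyte markers were called higher in BAT. The part of these cell types in the depot differences was not tested.

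Genes that act with this system were described from lists, and their counts stand beside 11.5% of all genes called by genotype on HFD (6.21% higher, 5.24% lower). In inguinal WAT on HFD, 3 of 9 tested inhibitors and clearance genes were called in KI against WT mice: Pcolce, an enhancer of procollagen processing, rose by 0.73 ± 0.13 (log2), and Tfpi2 (−1.74 ± 0.19) and Spock1 (−1.83 ± 0.29) fell. None of 12 tested activators, such as furin-type convertases and the plasminogen activators, was called by edgeR or DESeq2, and 4 had an unadjusted p below 0.05. Of 10 membrane ADAM genes, Adam12 (−2.40 ± 0.34), Adam22 (−0.48) and Adam10 (−0.28) fell and none was called higher. Of 2 tolloid proteinases Tll1 fell by 0.90. Of 25 tested matrix substrates, Thbs1 (1.58 ± 0.32) and Thbs2 (0.70) rose, while neurocan (Ncan, −2.68 ± 0.18), Comp (−1.49), lumican (Lum, −1.39) and Col4a1 (−0.42) fell. On chow, where 3.23% of all genes were called, Col6a1 fell by 0.83 and edgeR called no other gene of these lists. Of 25 tested substrates on chow, 13 had an unadjusted p below 0.05, and DESeq2 called 5 of them, with 2 inhibitors or clearance genes, 1 activator and 1 ADAM gene. Over all genes on chow, DESeq2 called 1116, where edgeR called 472. In BAT, where 1.83% of all genes were called, edgeR called none of the listed genes. There 13 of 22 tested substrates had an unadjusted p below 0.05, and DESeq2 called 3 of them and 1 inhibitor or clearance gene. Over all genes in BAT, DESeq2 called 714, where edgeR called 243. The share of all genes with an unadjusted p below 0.05 is not given here, so the counts at that threshold have no background beside them. Between depots in WT mice, 23 of 25 tested substrates were called lower in BAT and none higher, against 29% of all genes lower and 26.9% higher.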

How the data were processed

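RNA-seq counts of 41 tissue samples were used, 1 per mouse within each tissue and diet. Per the processing notes and the study's methods, the authors used cutadapt for trimming, STAR for alignment to GRCm38, SAMtools for sorting and counted reads per gene with featureCounts, and deposited raw counts in 3 tables, for inguinal WAT on HFD with the 2 libraries of each mouse in 1 column. The gene length column (other values) was deposited too. Entries without counts were dropped. Genes were filtered by filterByExpr and fitted within each tissue with TMM scaling and edgeR 4.0.16 quasi-likelihood tests (R 4.3.3), Benjamini-Hochberg adjusted over all genes. Diet, depot and interaction fits joined 2 tables. Fits across depots took the 2 depots as independent samples, although whether the same mice gave both is not stated. CPM and RPKM use TMM library sizes over all 6 groups. DESeq2 1.42.0 and other settings were alternatives. The fits were tested on simulated data. Permutation tests were exact and two-sided. Named genes are those called in a genotype or interaction test, the 4 TIMPs, the highest RPKM in each role, and the 5 called genes with the largest change each way by diet and depot in WT mice. The genes, lists and motifs were chosen with earlier results of these data known. P-values weigh a difference between groups against the spread between these mice. For diet and depot, that difference includes any between the count tables.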

Additional observations from a re-analysis of the deposited data

Results flagged for a closer look

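Within groups, 10 of 162 sets of mice held 1 mouse far from the others by Dixon's criterion, which chance gives in about 5% of sets. KI mouse 5 of the inguinal HFD group, which also had raised skeletal muscle markers, was high for Mmp9 (19.6 CPM, others 2.89 to 5.09), Mmp14 (83.5 CPM, others 37.9 to 54.2) and Mmp19 (44.2 CPM, others 23.7 to 31.3). KI mouse 2 of that group, with the highest lymphocyte markers, was low for Mmp2 at 53.6 CPM (others 87.4 to 113). On chow, KI mouse 1 was high for Mmp24 at 49.9 CPM (others 35.1 to 39.2), and WT mouse 4 was low for Mmp27 at 0.226 CPM (3 counts). The remaining 4 rest on few counts: Adamts18 at 0.108 CPM in chow WT mouse 7, 0.397 CPM in HFD WT mouse 7 and 0.152 CPM in BAT KI mouse 5, and Mmp27 at 0.279 CPM in BAT KI mouse 1 (others 0).

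The effect of the genotype differed between diets for Mmp11 (−2.18, log2, HFD minus chow) and Timp4 (1.75), and between depots for Adamtsl4 (−1.30, BAT minus inguinal WAT), by the interaction tests. Mmp11 shares exons with Chchd10, whose KI effect was also smaller on HFD (2.61) than on chow (4.77).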

How the results depend on the processing

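Of 1932 recomputed values of single genes, 1877 kept their status as called or not called, 40 lost the call and 15 gained it. None was counted as a reversed call, but some uncalled values changed sign when 1 mouse was left out. On chow, Timp1 ran from −0.78 to 0.33 and Mmp19 from −0.27 to 0.0006. In BAT, Timp3 ran from −0.15 to 0.038 and Timp4 from −0.10 to 0.15. For KI against WT in inguinal WAT on HFD, 7 calls became 15 at an adjusted p below 0.05, 12 with DESeq2 and 2 among genes without exon overlap. On chow, 2 became 4, 4 and 1 in the same order. In BAT, 1 became 6, 5 and 0 (12 at an unadjusted p below 0.05, and 3 with DESeq2, without exon overlap), and it became 2 without a count filter, 2 with the replicate block, 2 without the high-marker libraries and 3 in a single fit of all 6 groups. Over all genes, DESeq2 called 2754 on HFD, 1116 on chow and 714 in BAT, where edgeR called 1886, 472 and 243. In BAT, the calls over all genes were 304 without a count filter, 228 without the high-marker libraries and 834 in a single fit. Counts over all genes at 0.05 are not given here. Across diets, 8 calls in WT mice became 5 without exon overlap. In KI mice 14 became 9 without the high-marker libraries, while those over all genes went from 5332 to 2977. Between depots, at least 10 counts in every mouse gave 17 calls for 27 in WT mice (16 shared) and 19 for 30 in KI mice. Fewer genes were tested, and over all genes the calls went from 9619 to 7335 and from 10168 to 7748. The diet interaction went from 2 to 4 at 0.05 and to 4 with DESeq2 over all members. Without exon overlap it gave 0 (4 at an unadjusted p below 0.05, and 1 with DESeq2). The depot interaction went from 1 to 4 at 0.05 and to 2 each with the count minimum, DESeq2 and a single fit. Over all genes, DESeq2 called 408 for the diet interaction and 848 for the depot interaction, where edgeR called 110 and 485. Leaving out 1 mouse gave 6 to 9 calls on HFD, 2 to 3 on chow, 1 to 2 in BAT, 7 to 9 and 10 to 15 across diets in WT and KI mice, 27 to 28 and 28 to 31 between depots, 2 to 4 for the diet interaction and 1 to 2 for the depot interaction. Calls on Adamts12 by genotype and Adamtsl5 by diet were each lost in several of these fits. With the replicate block, Adamtsl5 passed by genotype on HFD (adjusted p = 0.00903) and in BAT (adjusted p = 0.000992), and Adamts12 on HFD did not (adjusted p = 0.0283). Over all genes the block moved calls from 1886 to 1545 on HFD, from 472 to 127 on chow and from 243 to 363 in BAT. The correlation of same-numbered mice ran from −0.25 to 0.62 on HFD, from −0.25 to 0.19 on chow and from −0.078 to 0.42 in BAT, and 2 of 16, 2 of 12 and 6 of 12 mice correlated best with their own number. Since some pairs in each tissue and diet were below 0.1 and no label ties the numbers to a shared source, the numbers were not taken as pairs. The choices of exon overlap and marker libraries were made after seeing the data. Low counts limit what can be said of Mmp13, Mmp27, Adamts18 and Adamts20.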
